A study of Mus musculus with 45 samples.

Results

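The 8 genes described here, Cdx1, Cdx2, Cdx4, T (also named Tbxt or brachyury), Nkx1-2, Tbx6, Mixl1 and Eomes, encode transcription factors of the posterior body axis and the primitive streak. They were taken by name, through the Ensembl identifier of each row of a count table of 54532 genes, and all 8 were found. The libraries came from neuroepithelial organoids of R1 mouse embryonic stem (ES) cells, labelled wild type, which were grown as clones in Matrigel in N2B27 medium. Organoids were collected at day 2, before treatment, or at 7 later times counted from day 2 (8 h, 18 h, 30 h, then 42 h and 54 h, finally 66 h and 78 h), either untreated or with 250 nM all-trans retinoic acid (RA) in the medium, in 3 biological replicates for each of 15 groups (45 RNAseq libraries). All groups share the line, the medium and the first days of growth, and the labels set them apart by time and RA alone. The label protocol writes the dose in µM and lists partly other times, and the dose and times of the sample titles and the design text are used here.

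In the gastrulating embryo, Wnt and FGF signals in the primitive streak and later in the tail bud maintain progenitors that build the trunk and tail. Cdx factors are homeobox proteins that act in these progenitors and regulate Hox genes, while T and Nkx1-2 mark the progenitors themselves, and Tbx6, Mixl1 and Eomes act in cells that form mesoderm or endoderm. RA is made in the newly formed somites, and Cdx1 is known as one of its direct target genes. Cdx2 and Eomes are also known as regulators of the trophoblast, the outer lineage of the early embryo. RNA was measured in whole organoids, in which fewer cells of a type and less RNA per cell cannot be told apart.

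The unit of all levels is CPM, in which counts are scaled by the size of the library, and each library had 17298632 to 39688686 counts (median 25923745). The distance of each library to the others of its group was measured as the root mean square difference of log2 levels over 14317 genes. RA 30 h replicate 2 (0.565) and RA 8 h replicate 3 (0.523) stood apart from a highest value of 0.348 in the other libraries, and the former was nearer to the mean of the RA-treated organoids at 42 h than to that of its own group. RA 78 h replicate 1 was also slightly nearer to another group, RA 66 h, than to its own. On the Y chromosome, Uty, Kdm5d, Eif2s3y and Ddx3y together had a mean of 1.22 to 3.73 CPM in 6 libraries, namely RA 8 h replicate 3, RA 30 h replicates 1 and 3 and all 3 untreated libraries at 30 h, and of 22.6 to 89.9 CPM in the other 39. By the library numbers in the titles, 16 libraries are of a later series, namely day 2 replicate 3, RA 30 h replicates 2 and 3, untreated 54 h replicate 3 and all of 66 h and 78 h. With the earlier numbers only, 1 RA-treated library remains at 30 h, which gives no spread of its own. There the log2 fold change was 4.58 for Cdx1 and -2.98 for Nkx1-2, given as values with no test. Summed levels of 6 neural progenitor markers (Sox1, Sox2, Pax6, Nes, Cdh2 and Hes5) were 463 to 479 CPM at day 2. At 78 h they were 911 to 1050 CPM in untreated and 1050 to 1230 CPM in RA-treated organoids. None of the 6 was at 0 in any group. Sox2 alone had 401 to 416 CPM at day 2. At 78 h the mean of Sox1 was lower with RA (94.7 against 166 CPM), while those of the other markers were higher, with Nes at 409 against 285 CPM.

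Of the 8 members, 7 passed the filter on low counts in the comparison of RA-treated with untreated organoids at each of the 7 times, and Cdx4 passed at none. A gene is called here when its adjusted p is under 0.01 and its log2 fold change has a size over 1. At 8 h, 1 of 7 members was higher with RA (Cdx1), against 1.26% of all genes tested, and 0 were lower, against 0.537%. At 18 h, 2 were higher (Cdx1 and Cdx2, against 8.17%) and 2 lower (T and Eomes, against 2.76%), and at 30 h Cdx1 was higher (1 of 7, against 5.98%) and Nkx1-2 lower (1 of 7, against 2.48%). At 42 h, 1 was higher (Cdx1, against 7.49%) and 4 were lower (Cdx2, T, Nkx1-2 and Eomes, against 4.96%). The same 4 genes were lower at 54 h (against 5.99%) and 0 were higher (against 7.17%). At 66 h, 1 was higher (Cdx1, against 7.06%) and 3 were lower (T, Nkx1-2 and Mixl1, against 4.44%), and at 78 h, 2 were higher (Cdx1 and Cdx2, against 7.66%) and 2 lower (T and Nkx1-2, against 4.03%). The median log2 fold change of the members was lowest at 42 h (-1.20) and 54 h (-1.34), where that of all tested genes was 0.01 and 0.00. Tbx6 was called at none of the 7 times.

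**Figure D1:**
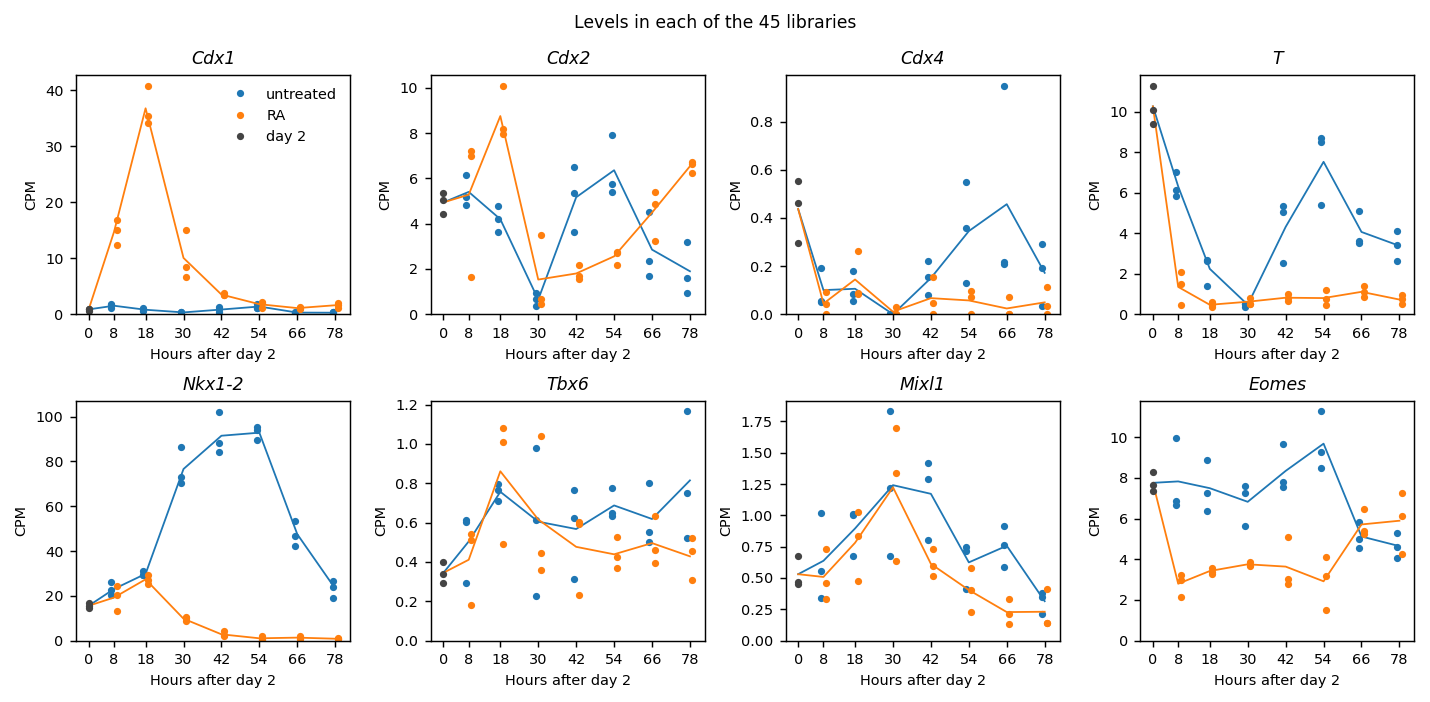
Level of each member in CPM (linear axis from 0) against hours after day 2, with 1 point per library and lines through the means of the 3 libraries of a group, for untreated (blue), RA-treated (orange) and day 2 organoids (grey). Cdx1 peaks at 18 h with RA, at 34.1 to 40.8 CPM, while Nkx1-2 reaches 84.4 to 102 CPM in the untreated libraries at 42 h and stays at or under 4.07 CPM with RA from that time on.

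Cdx1 was the member with the largest rise. It lies on chromosome 18 from 61018862 to 61036199 (minus strand, GRCm38), with 3 exons and 1750 exonic bases. Its level at day 2 was 0.589, 1.01 and 1.01 CPM in the 3 libraries. At 8 h the untreated libraries had 1.73, 1.76 and 1.07 CPM and the RA-treated libraries 16.8, 15 and 12.3 CPM, and at 18 h the values were 1.04, 0.624 and 0.742 CPM against 34.1, 35.5 and 40.8 CPM. The groups were far apart at both times, and RA 8 h replicate 3 was the lowest of its group but still above every untreated library. The log2 fold change was 3.29 (standard error 0.24, adjusted p = 4.3e-04) at 8 h and 5.55 (standard error 0.14, adjusted p = 6.6e-12) at 18 h, which is 46.8-fold. The RA effect at 18 h exceeded that at 8 h by 2.25 on the log2 scale (standard error 0.44, adjusted p = 0.0019 for the interaction), a difference called for 1.18% of 19194 genes, which lost the call without untreated 8 h replicate 1 (2.15) or 2 (2.12) or untreated 18 h replicate 3 (2.19).

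After 18 h the values of Cdx1 in RA-treated organoids were smaller. At 30 h they were 8.51, 15 and 6.67 CPM with RA and 0.450, 0.122 and 0.408 CPM without, and at 42 h they were 3.77, 3.42 and 3.37 CPM against 0.391, 1.26 and 0.879 CPM. The groups did not overlap at either time, and the highest value at 30 h was that of RA replicate 2, the library that stood apart. On the log2 scale the difference was 4.84 (standard error 0.48, adjusted p = 4.8e-04) at 30 h, 4.40 to 5.12 when 1 library was left out, and 2.04 (standard error 0.31, adjusted p = 2.7e-04) at 42 h. Between these times the RA effect dropped by 2.79 on the log2 scale (standard error 0.53, adjusted p = 5.8e-04), and an RA effect that differed from the one at 30 h was called for 3.51% of genes. The untreated libraries at 30 h had only 12, 2 and 8 counts of Cdx1, and the Y-linked genes were low in them. The part of this property in the drop was not tested.

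At 54 h the groups of Cdx1 overlapped, with 1.19, 2.13 and 2.06 CPM with RA and 1.19, 1.91 and 1.04 CPM without (log2 fold change 0.37, standard error 0.31, adjusted p = 0.34). Cdx1 was called higher again at 66 h and at 78 h, at low levels. At 78 h the RA-treated libraries had 2.02, 1.09 and 1.71 CPM and the untreated libraries 0.323, 0.145 and 0.353 CPM, which gave a log2 difference of 2.55 (standard error 0.36, adjusted p = 1.7e-04), and at 66 h it was 1.88 (standard error 0.29, adjusted p = 4.4e-04). The untreated level at these times rests on 5 to 13 counts per library. The later change of the RA effect, from 54 h to 66 h, was not called (difference 1.5, standard error 0.53, adjusted p = 0.16).

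Cdx2, a homeobox gene on chromosome 5 from 147300805 to 147307270 (minus strand) with 3 exons, was higher with RA at 18 h, lower at 42 h and 54 h, and higher at 78 h. At 18 h it stood at 10.1, 7.97 and 8.19 CPM with RA and at 4.78, 3.62 and 4.19 CPM without, with no overlap. The log2 fold change was 1.07 (standard error 0.13, adjusted p = 2.4e-05), close to the limit of 1, and it fell under that limit without RA 18 h replicate 1 (0.96) or untreated 18 h replicate 2 (0.98).

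At 42 h Cdx2 was at 1.68, 1.54 and 2.18 CPM in RA-treated and 3.64, 6.51 and 5.35 CPM in untreated organoids, and at 54 h at 2.19, 2.76 and 2.72 CPM against 5.39, 5.76 and 7.93 CPM. Every RA-treated library was under every untreated library at both times. On the log2 scale the difference was -1.53 (standard error 0.24, adjusted p = 3.6e-04) at 42 h and -1.34 (standard error 0.19, adjusted p = 1.5e-04) at 54 h. At 78 h the order was reversed, with 6.71, 6.26 and 6.64 CPM with RA against 0.933, 1.59 and 3.17 CPM without (log2 fold change 1.75, standard error 0.30, adjusted p = 5.7e-04). At 66 h, between these, the values overlapped at 3.24, 5.38 and 4.85 CPM against 1.68, 4.53 and 2.35 CPM, with a log2 fold change of 0.65 that missed the call (adjusted p = 0.12). Without untreated 66 h replicate 2 it was 1.15 and was called.

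The levels of Cdx2 at 8 h and 30 h depended on the libraries that stood apart. At 8 h the RA-treated libraries had 7.0, 7.20 and 1.64 CPM, the last being replicate 3, and the untreated libraries had 5.20, 4.84 and 6.17 CPM. The log2 fold change was 0.00 (adjusted p = 1) with all libraries and 0.40 without RA replicate 3, and Cdx2 was called under neither. At 30 h the untreated libraries had 0.674, 0.916 and 0.357 CPM and RA replicates 1 and 3 had 0.458 and 0.656 CPM, whereas RA replicate 2 had 3.48 CPM. The 5 low libraries are those with low levels of the Y-linked genes at 30 h. On the log2 scale the difference was 1.23 (standard error 0.81, adjusted p = 0.29) with all libraries and -0.21 without RA replicate 2. In the untreated organoids the 30 h level of Cdx2 was lower than at day 2 (5.04, 4.42 and 5.36 CPM) by 2.94 on the log2 scale, and at 42 h its values overlapped those of day 2. All 3 untreated libraries at 30 h have the low Y-linked levels, so that time and this property cannot be told apart there.

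Cdx4, an X-linked homeobox gene (chromosome X, 103321398 to 103330592, plus strand, 3 exons), was near the limit of detection, with at most 31 counts in a library. At day 2 it had 7, 11 and 11 counts. At 30 h all untreated libraries had 0 counts, and with RA there were 0, 1 and 0. With 3 counts over the group taken as the floor, the level of untreated organoids at 30 h was at least 8.61-fold lower than at day 2. The exact 95% interval of this ratio, which also covers the error of the 29 counts at day 2, began at 6.56. All 3 untreated libraries at 30 h have the low Y-linked levels, so time and this property cannot be told apart in this ratio. In untreated organoids Cdx4 had 12, 9 and 4 counts at 54 h and 7, 31 and 7 at 66 h, and in RA-treated organoids 0, 3 and 2 at 54 h and 0, 0 and 2 at 66 h. Every RA-treated library was under every untreated library at these times (exact permutation test, two-sided p = 0.1 at each, the smallest that 3 against 3 libraries can give), and the groups overlapped at the other 5 times. The ratio of untreated to RA-treated summed counts per library size was 5.23 (95% interval 1.97 to 17.5) at 54 h and 18.8 (4.92 to 160) at 66 h, where the intervals cover counting error only. The ratio at 66 h was 8.76 without untreated replicate 2, which holds 31 of the 45 untreated counts, and 12.1 without RA replicate 2. Without RA replicate 3 the RA-treated libraries had 0 counts. At 54 h the ratio was 8.30 without RA replicate 2 and 3.64 without RA replicate 1.

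T, the T-box gene whose product is required for mesoderm and the notochord, lies on chromosome 17 from 8434423 to 8442496 (plus strand, 8 exons). It was lower than at day 2 in both arms at 18 h and 30 h, and the RA-treated libraries were below the untreated ones at every time but 30 h. At day 2 it was at 9.42, 10.1 and 11.3 CPM. At 8 h the untreated libraries had 5.82, 7.01 and 6.12 CPM and the RA-treated libraries 1.5, 2.10 and 0.453 CPM, and at 18 h the values were 2.66, 1.42 and 2.65 CPM against 0.352, 0.617 and 0.433 CPM. The groups did not overlap at either time, and RA 8 h replicate 3 had the lowest value of its group. At 18 h the difference of -2.25 (log2, standard error 0.33, adjusted p = 8.7e-05) was called. At 8 h the difference of -2.18 (log2, standard error 0.42, adjusted p = 0.020) missed the call, whereas without RA 8 h replicate 3 it was -1.81 and was called.

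At 30 h T was at 0.525, 0.367 and 0.510 CPM in untreated and 0.524, 0.822 and 0.507 CPM in RA-treated organoids (log2 fold change 0.37, standard error 0.37, adjusted p = 0.50), with 6 to 14 counts in the untreated libraries. The untreated libraries then had 2.54, 5.36 and 5.05 CPM at 42 h and 5.39, 8.70 and 8.51 CPM at 54 h, while the RA-treated libraries had 0.652, 0.807 and 0.991 CPM and 0.461, 0.755 and 1.18 CPM. All libraries of the arms were apart at both times. The log2 fold change was -2.39 (standard error 0.31, adjusted p = 1.1e-04) at 42 h, -3.25 (standard error 0.29, adjusted p = 5.8e-06) at 54 h, -1.88 (standard error 0.22, adjusted p = 8.0e-05) at 66 h and -2.20 (standard error 0.26, adjusted p = 3.9e-05) at 78 h.

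The RA effect on T at 30 h differed from that at 18 h by 2.63 (standard error 0.61, adjusted p = 0.0027; 6.85% of genes were called for this change) and from that at 42 h, where it was lower by 2.76 on the log2 scale (standard error 0.57, adjusted p = 0.0015). The former lost the call without RA 30 h replicate 2 (2.34) or RA 18 h replicate 1 (2.42), and with the library series as a term of the fit (2.45). Both rest on the untreated libraries at 30 h, in which the Y-linked genes were low as well, and the part of this property in the result was not tested.

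Nkx1-2, a homeobox gene of the progenitors beside the streak and in the tail bud, lies on chromosome 7 from 132594878 to 132599637 (minus strand, 2 exons, 3264 exonic bases). Its span is inside that of Fgfr2 on the same strand, with 0 shared exonic bases, and the antisense gene Gm16764 shares 541 bases but had at most 8 counts in any library, against up to 2930 for Nkx1-2. It showed the largest difference between the arms of all members. At 8 h and 18 h no difference was called. At 18 h the untreated libraries had 31.0, 29.1 and 29.3 CPM and the RA-treated libraries 27.2, 25.3 and 29.5 CPM, a log2 difference of -0.11 (standard error 0.07, adjusted p = 0.19), and at 8 h it was -0.24 (standard error 0.22, adjusted p = 0.52).

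From 30 h on, the arms of Nkx1-2 went apart. At 30 h the untreated libraries had 86.4, 73.1 and 70.4 CPM and the RA-treated libraries 9.85, 8.91 and 10.5 CPM, and at 54 h the values were 89.5, 93.9 and 95.2 CPM against 0.269, 0.853 and 1.88 CPM. The arms did not overlap at either time, and RA 30 h replicate 2, which stood apart over all genes, had the lowest value of its group for Nkx1-2. On the log2 scale the difference was -2.99 (standard error 0.13, adjusted p = 2.4e-05) at 30 h, -5.03 (standard error 0.18, adjusted p = 9.4e-09) at 42 h and -6.55 (standard error 0.25, adjusted p = 1.2e-08) at 54 h, the last a 93.5-fold lower level.

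After 54 h the values of Nkx1-2 in untreated organoids were smaller, at 42.3, 53.5 and 46.7 CPM at 66 h and 19.2, 26.4 and 24.0 CPM at 78 h, and RA-treated organoids had 2.01, 0.885 and 1.01 CPM and then 0.996, 0.851 and 0.594 CPM. The arms did not overlap at either time. The log2 fold change was -5.22 (standard error 0.19, adjusted p = 3.4e-08) at 66 h and -4.81 (standard error 0.18, adjusted p = 4.6e-09) at 78 h. The RA effect dropped by 2.85 (standard error 0.29, adjusted p = 4.2e-09) from 18 h to 30 h and by 2.05 (standard error 0.32, adjusted p = 3.3e-05) from 30 h to 42 h on the log2 scale, and leaving out any 1 library kept both calls. Both drops use the 30 h libraries, of which all untreated ones and RA replicates 1 and 3 have the low Y-linked levels. Leaving out 1 library cannot test a property shared by most of them.

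The upstream sequences of T and Nkx1-2, the members most reduced with RA, and of Cdx2, whose difference changed direction, show what lies in front of these genes. They are the 250 bases before the start of each gene in RefSeq (GRCm38.p6), read on the strand of the gene. The search covered windows of 6 of the 8 members. Cdx1 and Mixl1 had no window in this search, so nothing is said here of their upstream sequences. The motifs searched on both strands were AGGTCA as well as GGGTCA and AGTTCA (half-sites of RA receptors), TTTATG (Cdx), CTTTGA (TCF/LEF, the factors of Wnt signalling) and GGTGTG (T-box), and capitals mark each match. The T window is chr17:8434173-8434422 (plus strand).
T: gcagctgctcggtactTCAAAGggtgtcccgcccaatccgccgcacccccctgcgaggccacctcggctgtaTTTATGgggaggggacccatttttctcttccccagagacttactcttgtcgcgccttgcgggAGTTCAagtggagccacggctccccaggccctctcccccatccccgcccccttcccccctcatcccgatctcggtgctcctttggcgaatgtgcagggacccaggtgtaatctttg
The Nkx1-2 window is chr7:132599638-132599887 (minus strand).
Nkx1-2: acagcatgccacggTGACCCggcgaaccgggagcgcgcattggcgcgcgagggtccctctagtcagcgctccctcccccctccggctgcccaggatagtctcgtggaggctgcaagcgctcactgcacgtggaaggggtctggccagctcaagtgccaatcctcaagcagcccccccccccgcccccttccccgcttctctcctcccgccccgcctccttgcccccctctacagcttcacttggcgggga
The Cdx2 window is chr5:147307250-147307499 (minus strand) and overlaps the first bases of the gene in the GENCODE annotation.
Cdx2: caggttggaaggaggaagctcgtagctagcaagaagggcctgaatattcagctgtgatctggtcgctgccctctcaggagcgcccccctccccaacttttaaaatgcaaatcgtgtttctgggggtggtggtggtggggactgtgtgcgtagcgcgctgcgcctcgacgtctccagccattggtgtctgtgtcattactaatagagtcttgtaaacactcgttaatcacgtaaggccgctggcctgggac

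The T window held AGTTCA from -116 to -111 bases of the start, TTTATG from -178 to -173, and CTTTGA on the opposite strand (read as TCAAAG) from -234 to -229. The Nkx1-2 window held GGGTCA on the opposite strand (read as TGACCC) from -236 to -231, and the windows of Cdx2, Cdx4, Tbx6 and Eomes held 0 matches. Of 32851 windows of this length in RefSeq, 11.8% held AGTTCA, 10.8% TTTATG, 13.8% CTTTGA, 11.6% GGGTCA, 14% AGGTCA and 16.3% GGTGTG. These shares make single matches common, and a match is a description of the letters only.

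Tbx6, the T-box gene of the presomitic mesoderm (chromosome 7, 126781483 to 126785560, plus strand, 8 exons), was low in all groups. It had 0.294, 0.402 and 0.338 CPM at day 2, and over the 21 untreated libraries it ranged from 0.225 to 1.17 CPM (median 0.636) and over the 21 RA-treated libraries from 0.182 to 1.08 CPM (median 0.493), with 4 to 43 counts per library. The arms overlapped at every time but 54 h, where the untreated libraries had 0.776, 0.636 and 0.650 CPM and the RA-treated libraries 0.423, 0.525 and 0.368 CPM. The log2 fold change there was -0.65 (standard error 0.33, adjusted p = 0.13), and the one at 78 h was -0.93 (standard error 0.37, adjusted p = 0.058). From day 2 the change of Tbx6 was 1.32 with RA at 18 h and 1.24 in untreated organoids at 78 h (log2, adjusted p = 0.017 for each), neither of them called. With library totals these were 1.52 and 1.42 and were called, and the second was also called in the fit of the 6 libraries alone (1.29).

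Mixl1, a homeobox gene of mesoderm and endoderm formation (chromosome 1, 180693043 to 180697034, minus strand, 2 exons), was likewise low, with 0.215 to 1.83 CPM (median 0.747) in the untreated and 0.131 to 1.70 CPM (median 0.477) in the RA-treated libraries. The untreated libraries at 66 h had 0.767, 0.918 and 0.586 CPM and the RA-treated libraries 0.335, 0.131 and 0.216 CPM. These did not overlap, and the difference of -1.76 (log2, standard error 0.38, adjusted p = 0.0034) was the only call of this gene. It was lost without RA 66 h replicate 2 (-1.47) or 3 (-1.74) or untreated 66 h replicate 1 (-1.73) or 2 (-1.59), and with DESeq2 (-1.77). At 42 h the groups were also apart, with a log2 fold change of -0.93 that was not called (adjusted p = 0.034).

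Eomes, a T-box gene of the early streak and the endoderm (chromosome 9, 118478212 to 118486132, plus strand, 6 exons), was below the untreated level in every RA-treated library up to 54 h, and called at 18 h, 42 h and 54 h. An antisense gene, Gm33460, shares 118 exonic bases with it and had at most 15 counts. Day 2 libraries had 7.65, 7.34 and 8.28 CPM. At 18 h the untreated libraries had 6.36, 7.24 and 8.88 CPM and the RA-treated libraries 3.39, 3.58 and 3.29 CPM, a log2 difference of -1.14 (standard error 0.14, adjusted p = 2.7e-05) that came to -0.99 without untreated 18 h replicate 3, just inside the limit. At 8 h the RA-treated libraries (3.00, 3.23 and 2.15 CPM) were all under the untreated ones (6.66, 6.86 and 9.96 CPM), and the difference of -1.46 (log2, standard error 0.24, adjusted p = 0.011) missed the call with all libraries but not without RA 8 h replicate 3 (-1.32).

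Eomes kept apart at 30 h as well, at 3.73, 3.86 and 3.66 CPM with RA and 7.61, 5.62 and 7.24 CPM without, although the log2 fold change of -0.88 was under the limit of the call. At 42 h it was -1.20 (standard error 0.21, adjusted p = 7.9e-04). At 54 h the untreated libraries reached 9.27, 11.3 and 8.48 CPM and the RA-treated ones had 1.5, 3.15 and 4.09 CPM, a log2 difference of -1.75 (standard error 0.27, adjusted p = 2.6e-04). At 66 h the groups overlapped, at 5.25, 6.49 and 5.39 CPM with RA and 4.54, 5.81 and 5.00 CPM without (log2 fold change 0.14, standard error 0.14, adjusted p = 0.42), and at 78 h it was 0.35 (standard error 0.19, adjusted p = 0.16). None of the 8 members had a called change of the RA effect from 42 h to 54 h (0 of 8, against 0.26% of genes) or from 66 h to 78 h (0 of 8, against 0.0365%). The RA effect on Eomes at 66 h was above that at 54 h by 1.89 (standard error 0.32, adjusted p = 7.2e-04; 0.573% of genes were called), in 12 of 12 fits with a library left out between 1.58 and 2.19.

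**Figure D2:**
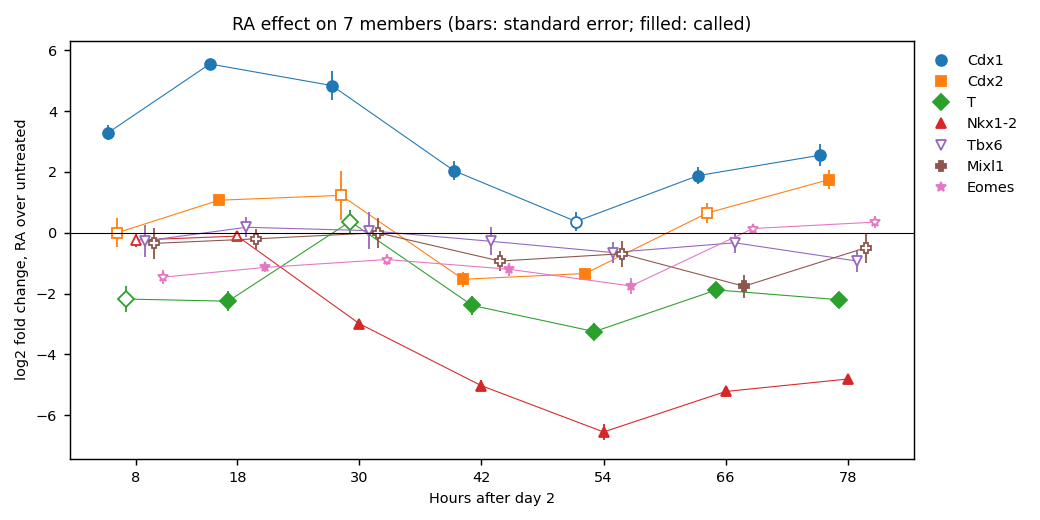
Log2 fold change of RA-treated over untreated organoids (vertical axis) against hours after day 2 for the 7 members that were tested, with bars for the standard error, filled symbols where the gene was called and points of a time shifted sideways for legibility. Cdx1 is at 5.55 at 18 h and comes down to 0.37 at 54 h, Nkx1-2 goes from -0.11 at 18 h to -6.55 at 54 h, and T is under -1.8 at every time but 30 h.

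The members were next set against the day 2 libraries in one fit of all 45 libraries, in which all 8 passed the filter. These comparisons share the 3 day 2 libraries. In untreated organoids, 0 of 8 members were called at 8 h (0.292% of genes higher and 0.0834% lower). At 18 h, 1 was lower (T, against 0.802%), and at 30 h, 3 were lower (Cdx2, Cdx4 and T, against 9.90%) and 1 higher (Nkx1-2, against 10.3%). In the changes at 30 h, time and the low Y-linked levels of the untreated libraries cannot be told apart. At 42 h, 1 was lower (T, against 7.62%) and 1 higher (Nkx1-2, against 12.2%), and at 54 h, 0 were lower (against 10.1%) and 1 higher (Nkx1-2, against 13.4%). At 66 h, 2 were lower (Cdx1 and T, against 11.7%) and 1 higher (Nkx1-2, against 16.3%), and at 78 h, 3 were lower (Cdx1, Cdx2 and T, against 13%) and 0 higher (against 18.3%).

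Nkx1-2 rose in untreated organoids by 2.3 at 30 h, 2.55 at 42 h, 2.58 at 54 h and 1.61 at 66 h on the log2 scale (standard error 0.21 at each). At 18 h the change of 0.93 was just under the limit (adjusted p = 7.6e-04), with all 3 libraries above those of day 2. T was lower than at day 2 by 2.18 (standard error 0.30) at 18 h and by 4.42 (standard error 0.38, adjusted p = 1.7e-12) at 30 h on the log2 scale, and at 54 h its change of -0.44 (standard error 0.28, adjusted p = 0.17) was not called. The change of T at 42 h was -1.25 (standard error 0.28, adjusted p = 3.0e-04) and came to -0.98 without untreated 42 h replicate 1. For Cdx1 the change was -1.54 at 66 h (adjusted p = 0.0030) and -1.65 at 78 h (adjusted p = 0.0017). The first lost the call without any 1 of 4 libraries, namely day 2 replicate 2 (-1.43) or 3 (-1.41) or untreated 66 h replicate 1 (-1.47) or 3 (-1.50), and the second without day 2 replicate 3 (-1.51) or untreated 78 h replicate 2 (-1.32). For Cdx2 at 78 h the change of -1.35 (adjusted p = 0.0076) lost the call without day 2 replicate 1 (-1.34), 2 (-1.42) or 3 (-1.29) or untreated 78 h replicate 1 (-1.03) or 2 (-1.21), and with library totals (-1.19).

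In RA-treated organoids against day 2, Cdx1 was the 1 member higher at 8 h (against 4.83% of genes), 18 h (13.3%), 30 h (18.4%), 42 h (18.6%) and 54 h (19.2%), and 0 were higher at 66 h (19.9%) or 78 h (20.7%). T and Eomes were the 2 lower at 8 h (against 2.91%) and at 18 h (4.94%). At 30 h, 4 were lower (Cdx2, Cdx4, T and Eomes, against 10.8%), at 42 h 4 (Cdx2, T, Nkx1-2 and Eomes, against 11.8%), and at 54 h 4 (Cdx4, T, Nkx1-2 and Eomes, against 14.2%). At 66 h, 3 were lower (Cdx4, T and Nkx1-2, against 13.1%), and at 78 h the same 3 (against 14.2%). T was the member lower at all 7 times. RA 8 h replicate 3 and RA 30 h replicates 1 and 3 have the low Y-linked levels, which no day 2 library has. The part of this property in the changes at 8 h and 30 h was not tested.

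T was lower with RA than at day 2 by 2.89 (standard error 0.32, adjusted p = 3.9e-09) at 8 h and by 4.44 (standard error 0.37, adjusted p = 9.1e-13) at 18 h on the log2 scale, and its later changes lay between -4.05 at 30 h and -3.20 at 66 h. Nkx1-2 was first above day 2, by 0.81 at 18 h (adjusted p = 0.0010, under the limit of the call), and then fell by 2.47 at 42 h, 3.95 at 54 h, 3.59 at 66 h and 4.23 at 78 h on the log2 scale. Eomes had changes of -1.46 at 8 h and -1.41 at 54 h, and those between, at 18 h, 30 h and 42 h, lay from -1.18 to -1.05. With library totals in place of TMM these 3 came to -0.98, -0.86 and -0.90, under the limit of the call. With a library left out, Eomes came to -1.0 at 30 h without day 2 replicate 3, and to -0.98 and -0.93 at 42 h without RA 42 h replicate 1 and 2, which ends these calls.

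Cdx1 was up by 4.09 at 8 h (standard error 0.32, adjusted p = 5.2e-13) and 5.41 at 18 h (standard error 0.32, adjusted p = 9.7e-17) from day 2. The rise of 1.06 at 54 h (adjusted p = 0.0080) lost the call without any 1 of the 3 day 2 libraries (0.83, 1.17 and 1.20) or RA 54 h replicate 2 (0.93) or 3 (0.97). Cdx2 was lower by 1.69 at 30 h (standard error 0.46, adjusted p = 0.0015) and by 1.46 at 42 h (standard error 0.46, adjusted p = 0.0060) on the log2 scale. At 30 h the call was lost without RA 30 h replicate 1 (-1.28) or 3 (-1.33) and in the fit of the 6 libraries alone (-1.68), and without RA 30 h replicate 2 the change was -3.12. At 42 h it was lost without RA 42 h replicate 1 (-1.41) or 2 (-1.35) or day 2 replicate 1 (-1.44) or 3 (-1.40), and with the library series as a term of the fit (-1.22) or library totals (-1.26). RA 30 h replicates 1 and 3, with Cdx2 at 0.458 and 0.656 CPM, have the low Y-linked levels. Replicate 2, at 3.48 CPM, does not. The part of this property in the change of Cdx2 at 30 h was not tested.

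The calls of Cdx4 against day 2 rest on few counts. In RA-treated organoids the 3 libraries together had 1 count at 30 h, 5 at 54 h, 2 at 66 h and 5 at 78 h, against 29 at day 2. The ratio of day 2 to RA-treated counts per library size was 36.2 (95% interval 6.0 to 1480) at 30 h, 6.35 (2.43 to 21.0) at 54 h, 16.0 (4.04 to 138) at 66 h and 7.02 (2.69 to 23.2) at 78 h. Single libraries moved these ratios, to 23.5 at 30 h without RA replicate 3 and 10.3 at 66 h without RA replicate 2. At 54 h the ratio was 10.1 without RA replicate 2 and 4.41 without RA replicate 1. At 78 h it was 22.0 without RA replicate 1 and 4.84 without RA replicate 3. Without RA 30 h replicate 2 or RA 66 h replicate 3 the RA-treated group had 0 counts. At 54 h the call was lost without RA 54 h replicate 1 or 3 or day 2 replicate 2 or 3 and with DESeq2. At 78 h it was lost without RA 78 h replicate 2 or 3 or day 2 replicate 2 and with the library series as a term of the fit.

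**Figure D3:**
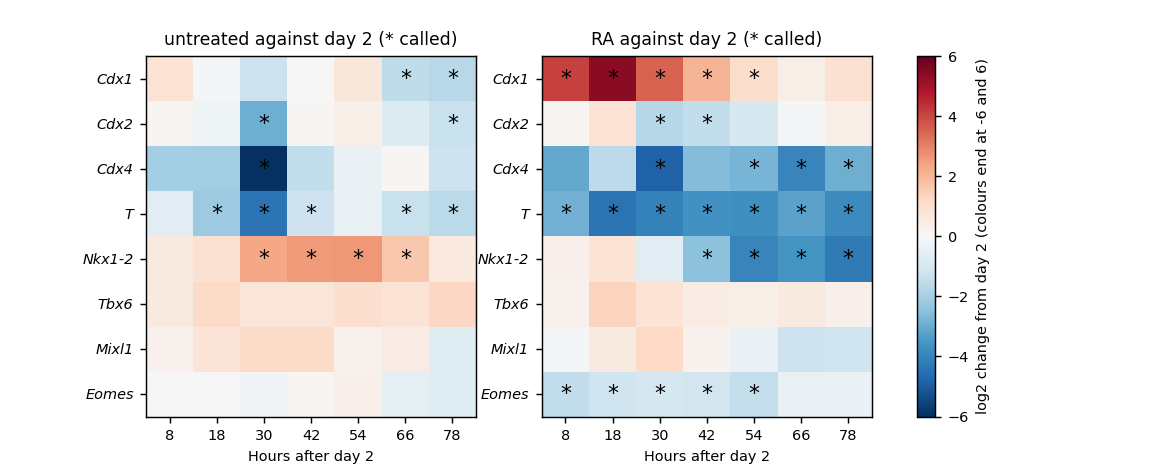
Log2 change of the 8 members from day 2 (colour, from -6 in blue to 6 in red) at each of 7 times in untreated (left) and RA-treated organoids (right), with an asterisk where the gene was called. Nkx1-2 is red on the left from 30 h to 66 h (1.61 to 2.58) and blue on the right from 42 h on (-4.23 to -2.47); the fitted colours of Cdx4 rest on groups with as few as 0 counts and are no measure of its fold.

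To compare levels between members, CPM values were divided by the exonic length in kb. At day 2 the order was Nkx1-2 (4.77 ± 0.302 CPM per kb), T (4.43 ± 0.405), Cdx2 (2.19 ± 0.211), Eomes (1.87 ± 0.115), Cdx1 (0.497 ± 0.139), Mixl1 (0.231 ± 0.0540), Cdx4 (0.223 ± 0.0670) and Tbx6 (0.191 ± 0.0301; SD, n = 3 each). The standard deviations of Nkx1-2 and T, of Cdx2 and Eomes, and of the last 3 genes overlapped. In RA-treated organoids at 18 h, Cdx1 was first at 21.0 ± 2.03 CPM per kb, then Nkx1-2 (8.38 ± 0.648) and Cdx2 (3.87 ± 0.523), and T (0.202 ± 0.0586) was next to last. In untreated organoids at 54 h, Nkx1-2 (28.5 ± 0.914) was far above T (3.25 ± 0.804), Cdx2 (2.81 ± 0.607) and Eomes (2.33 ± 0.353), which did not differ beyond their spread. With RA at 54 h the first in order were Cdx2 (1.13 ± 0.141), Cdx1 (1.03 ± 0.300) and Eomes (0.701 ± 0.315), whose standard deviations overlapped from neighbour to neighbour, and Nkx1-2 was at 0.306 ± 0.250.

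Genes with the pattern most like that of a member were found by Pearson's r of log2(CPM + 1) over the 15 group means, among 16014 genes with a mean of at least 1 CPM in a group. These values describe points that share line, medium and time course, and say nothing of shared function. For Nkx1-2 they were Kcnj3 (r = 0.970), Lhpp (0.961) and Slc45a1 (0.960). Lhpp is on chromosome 7 from 132610638 to 132706420 on the plus strand, 11001 bases from Nkx1-2 and on the other strand, and its group means ran from 11.1 to 80.0 CPM. For Cdx1 they were 1700031F05Rik (0.955), Wdr81 (0.955) and Ccdc88b (0.953), and for T they were Sdhd (0.922), Scn3b (0.908) and Tbl1xr1 (0.900). The likeness was weaker for Cdx2, where Ddx3y, a gene of the Y chromosome, was first (0.788), followed by Gm13261 (0.780) and Slc35b1 (0.775). For Eomes they were Mdrl (0.885), Ccnd1 (0.884) and Snx10 (0.879), and for Mixl1 they were Me1 (0.915), Stim1 (0.910) and Klc3 (0.906).

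Other genes of the posterior axis are given as whole lists. A listed gene near 0 without RA, such as Hoxb5 or Hoxb6 at 18 h, passed the filter on low counts through its RA-treated libraries only. Such a gene could hardly be called lower, so the counts of higher and lower genes in a list are partly set by the filter. Of 19 Hox genes of paralog groups 4 to 9, the trunk Hox genes that Cdx factors are known to regulate, 12 of 13 tested were higher with RA at 18 h (against 8.17% of all genes) and 0 lower (against 2.76%), with a median log2 fold change of 4.76 (0.02 over all genes). Hoxb5 rose from 0.166 ± 0.0800 to 36.6 ± 0.820 CPM (SD, n = 3 each), Hoxb4 from 0.719 ± 0.144 to 60.3 ± 3.32 CPM and Hoxb6 from 0.325 ± 0.0506 to 24.6 ± 1.18 CPM. At 78 h the RA-treated libraries had Cdx1 at 1.09 to 2.02 CPM and Cdx2 at 6.26 to 6.71 CPM. At that time 11 of 16 tested Hox genes of these groups were higher (against 7.66%) and 0 lower (against 4.03%). Of these 11, 10 were also higher at 18 h and 1, Hoxd8, was not tested there. Hoxb9 and Hoxa9, higher at 18 h, had log2 fold changes of 0.15 and -1.28 at 78 h that were not called. Hoxa9 was lower at 54 h (log2 fold change -2.97) and 66 h (-2.43) and Hoxc9 at 66 h (-1.67), and Hoxa9, Hoxc9, Hoxb9 and Hoxd8 were singled out after their values were seen. Of 12 Hox genes of groups 10 to 13, which pattern the tail, only 3 were tested at 18 h, with Hoxa10 higher (4.11) and Hoxd13 lower (-1.25).

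Among 14 genes of the streak and node, 2 of 8 tested were higher (against 8.17% of all genes) and 3 lower (against 2.76%) at 18 h, and at 54 h 2 of 9 were higher (against 7.17%) and 7 lower (against 5.99%), with a median log2 fold change of -2.11 (0.00 over all genes). Fgf4, a growth factor of the streak and of ES cells, fell from 212 ± 11.4 to 43.3 ± 5.50 CPM at 18 h, and Tdgf1, a co-receptor of Nodal, from 264 ± 14.8 to 64.3 ± 10.9 CPM (SD, n = 3 each). Lhx1 (log2 fold change 5.52) and Foxa2 (1.89) rose. Many of these genes also work in the epiblast, and the summed level of 7 pluripotency and epiblast markers was 744 to 827 CPM with RA against 1480 to 1560 CPM without at 18 h and 131 to 254 CPM against 811 to 887 CPM at 54 h, times at which T and Eomes were lower too. The part of this difference in the results for the members was not tested.

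Of 14 genes of the tail bud and the Wnt response, 2 of 13 tested were higher and 1 lower at 18 h, few genes beside the 8.17% and 2.76% of all genes. The median log2 fold change was 0.02, as over all genes. At 66 h, 6 of 14 were higher (against 7.06%) and 2 lower (against 4.44%), with a median of 0.65 (-0.01 over all genes). At 18 h, Lef1, which encodes a nuclear factor of Wnt signalling, fell from 160 ± 16.7 to 35.0 ± 3.49 CPM, Sp5 rose (log2 fold change 1.45), and Cyp26a1, the enzyme that degrades RA, rose from 2.75 ± 0.433 to 277 ± 14.4 CPM (SD, n = 3 each). All 8 genes of the RA response list, in which Cyp26a1 also stands, were higher at both 18 h and 30 h (against 8.17% and 5.98%), whereas 2 were higher and 2 lower at 78 h (against 7.66% and 4.03%). Of 14 genes of the presomitic mesoderm and somites, 5 of 11 tested were higher (against 8.17%) and 1 lower (against 2.76%) at 18 h, with a median log2 fold change of 0.83 (0.02 over all genes). Meox1 (6.09), Foxc1 (4.83) and Pax3 (2.68) rose and Dll3 (-1.63), a Notch ligand, fell. Msgn1, a gene of the presomitic mesoderm, had at most 5 counts in any library of either arm.

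Of 11 genes of the anterior neural plate, 3 of 6 tested were higher (against 8.17%) and 1 lower (against 2.76%) at 18 h. Otx2, the factor of the forebrain and midbrain, fell from 249 ± 13.4 to 14.4 ± 3.41 CPM, and Emx2 (log2 fold change 1.79) and Lhx2 (1.38) rose at low levels, to 1.87 ± 0.364 and 2.15 ± 0.511 CPM with RA (SD, n = 3 each).

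Markers of other cell types moved with some results. Of 9 trophoblast markers (Elf5, Tfap2c, Gata3, Hand1, Krt7, Krt8, Krt18, Ascl2 and Esx1), 9 of 9 were higher with RA at 66 h (against 7.06% of all genes) and 78 h (against 7.66%), and 0 of 6 tested were at 30 h (against 5.98%). Their summed level at 78 h was 628 to 658 CPM with RA and 55.0 to 66.2 CPM without, in the libraries in which Cdx2 was higher and Eomes no longer lower, and at 54 h, when Cdx2 and Eomes were both lower, it was 343 to 384 CPM against 61.5 to 66.3 CPM. Elf5, at 0.0295, 0.0918 and 0.0926 CPM in the untreated libraries at 66 h, was tested there only through its RA-treated libraries. The sum at 30 h was 55.1, 234 and 51.6 CPM in the RA-treated and 43.6 to 45.4 CPM in the untreated libraries. The high value is that of RA replicate 2, the library that stood apart and had the high Cdx2 level of 3.48 CPM. Krt8 was at 18.9, 88.8 and 17.4 CPM with RA. A set of 6 intestine markers, chosen since Cdx1 and Cdx2 also act in the gut, had summed levels of 7.66 to 9.78 CPM with RA and 4.24 to 5.01 CPM without at 18 h, with Fabp1 at 0 in both groups and Cdh17 at 0 with RA. For 7 endoderm markers the sums were 26.0 to 27.9 CPM against 3.97 to 4.13 CPM at 18 h, with Ttr at 0 in both groups. Those of 8 mesoderm markers were 62.1 to 68.1 CPM against 38.4 to 41.2 CPM. Of the mesoderm markers tested, Meox1 rose from 0.437 to 30.9 CPM and Pdgfra from 1.48 to 3.21 CPM. Kdr fell from 2.02 to 0.439 CPM, and Tcf15 was at 29.5 CPM with RA against 34.8 CPM without, a difference that was not called. The part of these cells in the levels of the members was not tested.

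**Figure D4:**
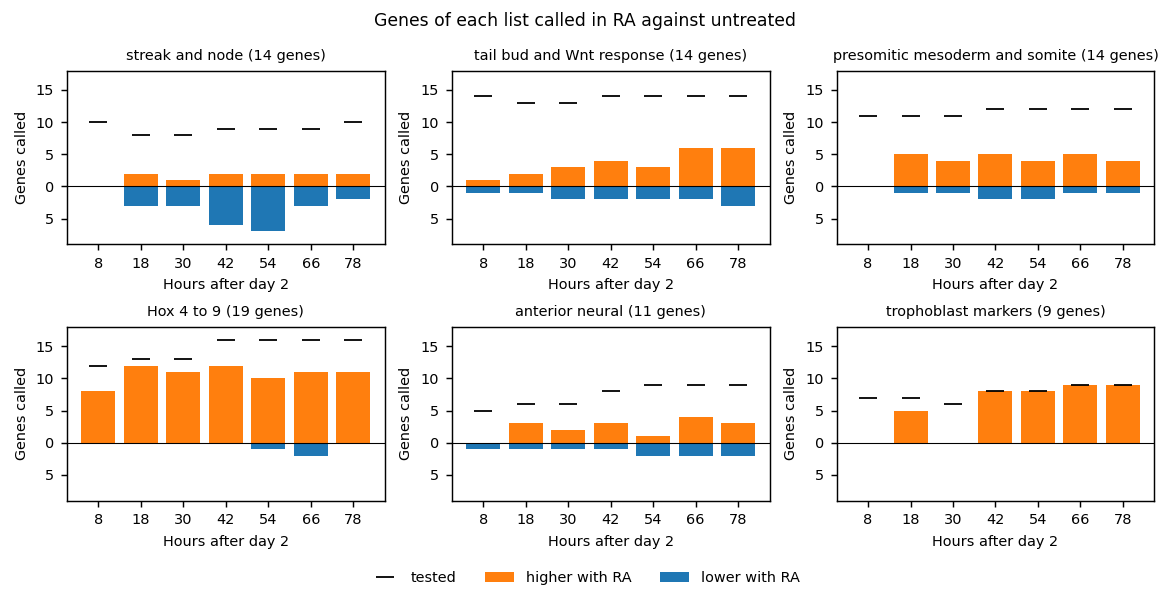
Number of genes called higher (orange, above 0) and lower (blue, below 0) in RA-treated against untreated organoids at each of 7 times for 6 gene lists, with black marks for the number tested. Of the Hox genes of groups 4 to 9, 12 of 13 tested are higher at 18 h, 7 of 9 tested streak and node genes are lower at 54 h, and all 9 trophoblast markers are higher at 66 h and 78 h. Genes near 0 without RA were tested only through their RA-treated libraries and could hardly be called lower.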

How the data were processed

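RNA from 45 organoid samples was sequenced as 75 bp single-end reads from directional poly(A) libraries. Per the labels and the methods of the study, the authors trimmed reads with Trim Galore 0.5.0, removed abundant sequences with Bowtie2 2.3.4.1, aligned to GRCm38 (Ensembl release 94) with STAR, and counted reads per gene with featureCounts (Subread 1.6.2). The deposited table holds these raw counts, unnormalized and with replicates kept apart. The strand setting and the treatment of reads with several matches are not given in the sources used here, so that overlapping genes can share reads. Columns were matched to samples by the library number in the sample titles.

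RA-treated and untreated libraries of a time were compared with edgeR 4.0.16 in R 4.3.3 (TMM normalization, filterByExpr with a minimum count of 10 and a minimum total of 15, glmQLFit and glmQLFTest on the 6 libraries). Each arm against day 2, and the RA effect at a time against that at the time before (interaction, adjusted p under 0.01), came from 1 fit of all 45 libraries. Adjusted p-values follow Benjamini and Hochberg over all tested genes, and the standard error is the log2 fold change divided by the square root of F. Cdx4 was compared by exact permutation tests of log2(CPM + 0.01), and its count ratios have exact conditional binomial intervals. Positions and exonic lengths are from GENCODE M21 (GRCm38), a release that differs from the one counted on.

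All 8 members were named, and up to 4 called genes of each list of posterior axis genes with the largest change at 18 h, of which 1 is not reported here. Members and lists were chosen with earlier results of these data known. Replicate libraries were compared by chi-square, and all 45 pairs differed by more than sampling noise (a mean of at least 1.92 per gene). On simulated counts with 200 genes changed by a log2 of 2, the test recovered 100% for RA against untreated at 18 h (16480 genes) and for RA 18 h against day 2 (18051 genes), and 99% for the interaction of 18 h with 8 h (18051 genes), with 1 false call each. The simulated spread was the same for every gene, and only genes above a minimum expected count were changed. The recovery for genes as low as Cdx4, Tbx6 and Mixl1, or with libraries that stand apart, was therefore not tested. Counts of 17298632 to 39688686 per library limit precision for the low genes, and the reads carry no molecular identifiers. Alternatives were DESeq2 1.42.0, library totals or RLE size factors, other filters and thresholds, other fits, the replicate block, the library number series and each library left out; leaving out RA 8 h replicate 3 and RA 30 h replicate 2 together, and each library for the Cdx4 ratios, was added after seeing the data.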

Additional observations from a re-analysis of the deposited data

Results flagged for a closer look

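In 7 cases the RA effect on a member differed from that at the time before, by the interaction term of the fit of 45 libraries. For Cdx1 the effect was higher at 18 h than at 8 h by 2.25 and lower at 42 h than at 30 h (-2.79). For Nkx1-2 it was lower at 30 h than at 18 h (-2.85) and again at 42 h than at 30 h (-2.05). For T it was higher at 30 h than at 18 h by 2.63 and lower at 42 h than at 30 h (-2.76). For Eomes it was higher at 66 h than at 54 h by 1.89. These are differences of log2 fold changes. Those of T and Nkx1-2 and the second of Cdx1 involve the untreated libraries at 30 h, in which the Y-linked genes were low. These libraries had 6 to 14 counts of T each, and 12, 2 and 8 counts of Cdx1. The part of the low Y-linked levels in these differences was not tested.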

How the results depend on the processing

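Over the 7 times, 8 member calls were higher and 16 lower with RA, 4 higher and 10 lower in untreated organoids against day 2, 5 higher and 22 lower in RA-treated organoids against day 2, and 7 RA effects differed from the time before. Where every library had to hold 10 counts, these became 5 for the first, 0 and 0 for untreated organoids, 0 and 5 for RA-treated organoids against day 2 and 1 for the last, since fewer members are then tested. At an adjusted p under 0.05 with no minimum fold, 9 calls were higher in untreated and 9 in RA-treated organoids against day 2, and library totals gave 9 for the latter. Without a filter, 12 RA effects differed from the time before. With each library left out the counts were 7 to 9, 15 to 18, 4 to 5, 7 to 10, 4 to 6, 19 to 22 and 6 to 9.

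In the alternatives run, signs turned only for differences that were not called. For Cdx2 at 8 h the log2 fold change was 0.011 with 10 counts in every library, 0.052 with library totals, 0.41 without both libraries that stood apart and -0.28 to 0.40 with one left out. For Cdx2 at 30 h, earlier library numbers alone gave -0.49, leaving out both libraries -0.20 and leaving out one -0.21 to 1.65, and for Tbx6 at 30 h these were -0.67, -0.49 and -0.50 to 0.55. For Mixl1 at 30 h it was 0.036 with 10 counts in every library, 0.16 with earlier numbers, 0.13 with library totals, 0.022 in 1 fit of all libraries, 0.33 without both and -0.36 to 0.34 with one left out, and for Nkx1-2 at 18 h it was 0.004 with library totals. With one left out, Mixl1 was at -0.70 to 0.17 at 8 h and -0.46 to 0.049 at 18 h, and Tbx6 at -0.56 to 0.088, -0.018 to 0.47 and -0.57 to 0.072 at 8 h, 18 h and 42 h. The causes were not tested. T and Eomes at 8 h were also called with DESeq2, no filter or 1 fit of all libraries, whereas 1 fit of all libraries lost Cdx2 at 18 h and 54 h.

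The replicate numbers do not pair the samples (correlations of -0.192 to 0.226 over 21 pairs of equal number), and with the replicate block 24 instead of 22 calls were lower in RA-treated organoids against day 2, the other 6 counts being equal. Of the 18 genes most like a member, 14 stayed among the top 3 with a pseudocount of 0.1. Cdx4, Tbx6 and Mixl1 had at most 57 counts per library, which limits their precision.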
